A study of Mus musculus with 12 samples.

Results

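Skeletal muscle contractile genes encode the proteins that build the sarcomere of striated muscle, release and recapture its calcium and supply its ATP. A list of 39 such genes was followed across 12 arrays of mouse fat, and all 39 were among the 19938 genes with a measurement. Each gene was represented by the transcript row that names that gene alone and has the highest mean over the 12 arrays. The genes were grouped by known function, 14 of them typical of fast fibres, 6 typical of slow fibres and 19 used by both fibre types. The arrays were of the 1-colour Affymetrix kind, and the samples were white fat (white adipose tissue, WAT) or brown fat (BAT) taken from males at 20 weeks of age. The mice either lacked the clock gene Per2 (Per2-/-, here KO) or carried it intact (per2+/+, here WT). Both genotypes gave both tissues, and each of these 4 groups had 3 arrays that are labelled biological replicates. All mice ate chow and lived in 12 hours of light and 12 hours of dark, and tissue was taken at 1 time of day that the labels do not state. The KO line is credited to an earlier publication, with no Cre or tissue restriction in the labels, and the fat depots are named only as white and brown. The labels do not say whether a WAT array and a BAT array with the same number came from 1 animal.

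Muscle fibres shorten when myosin heavy chains pull on actin filaments, and calcium released from the sarcoplasmic reticulum permits this by binding the troponin complex. Fast and slow fibres use different forms of myosin, troponin and calcium pump, so the forms present in an RNA sample carry the signature of a fibre type. Brown adipocytes share a developmental lineage with skeletal muscle and use some of the same mitochondrial proteins, but they do not build sarcomeres. In bulk tissue, fewer muscle fibres and less muscle RNA per fibre cannot be told apart, and neither can muscle tissue in a sample and transcription of these genes in other cells.

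The adipocyte genes Adipoq and Fabp4 were high on all 12 arrays, with Adipoq, a secreted adipocyte hormone, at 2839 to 3334 in WT WAT and at 3099 to 3401 in WT BAT. Leptin (Lep) marked the WAT arrays, at 824, 1001 and 773 in WT against 161, 56.0 and 86.3 in WT BAT. The uncoupling protein Ucp1 marked the BAT arrays, at 10810.3, 11144 and 10433 in WT. Per2 itself was at 116, 99.5 and 122 in WT WAT and 116, 108 and 172 in KO WAT, and at 174, 158 and 163 and 138, 151 and 158 in BAT. The sources used here do not say where the Per2 probes lie relative to the deleted part, and so its level checks no genotype label. KO WAT replicate 3 stood apart from its group: its rank correlation with the other KO arrays of WAT was 0.956 and 0.954, against 0.992 between those 2. Median intensities were 85.7 to 89.0 in WT WAT, 81.0 to 88.3 in KO WAT and 66.0 to 70.3 in BAT. Values below are PLIER intensities, listed by replicate 1, 2 and 3. With 3 arrays in a group, their number sets the precision.

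Promoter windows of 300 bases (250 before the start and 50 after it) came from RefSeq on GRCm38.p6, and 30 of the 39 genes had 1 or more, 37 windows in all. Neb, Tnnt3, Tnni2, Actn3, Myoz1, Tcap, Trdn, Jph1 and Sln had no window there. The E-box CAGCTG, a letter pattern that myogenic regulators such as MyoD bind, occurred in 19 of the 37 windows (51.4%), against 16.3% of all 32851 windows. It reads the same on both strands and is 1 form of the wider E-box CANNTG, which was found on either strand in 83.8% of the muscle gene windows and 72.3% of all windows. By fibre class, CAGCTG was in windows of 5 of 10 fast fibre genes, 2 of 6 slow fibre genes and 9 of 14 genes of both types. A match describes the letters in the window and is not a measured binding site. Shown are the 3 genes with a window that had the largest differences between BAT and WAT in WT, and the slow fibre gene Tnnc1 beside them, with each CAGCTG in capitals: Myh4 (chr11:67237562-67237861, plus strand), Ckm (chr7:19410844-19411143, plus strand), Atp2a1 (chr7:126463024-126463323, minus strand) and Tnnc1 (chr14:31208062-31208361, plus strand).
Myh4: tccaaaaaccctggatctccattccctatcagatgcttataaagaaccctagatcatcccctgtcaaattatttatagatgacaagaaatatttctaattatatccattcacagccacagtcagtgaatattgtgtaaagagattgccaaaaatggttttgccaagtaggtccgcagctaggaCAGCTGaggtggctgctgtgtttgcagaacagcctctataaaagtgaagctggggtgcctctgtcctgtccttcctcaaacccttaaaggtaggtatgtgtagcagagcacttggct
Ckm: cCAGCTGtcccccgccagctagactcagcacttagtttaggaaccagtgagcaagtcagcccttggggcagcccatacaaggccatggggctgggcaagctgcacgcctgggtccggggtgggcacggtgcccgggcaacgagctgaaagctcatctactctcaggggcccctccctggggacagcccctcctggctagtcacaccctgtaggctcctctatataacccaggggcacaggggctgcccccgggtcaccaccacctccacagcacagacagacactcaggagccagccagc
Atp2a1: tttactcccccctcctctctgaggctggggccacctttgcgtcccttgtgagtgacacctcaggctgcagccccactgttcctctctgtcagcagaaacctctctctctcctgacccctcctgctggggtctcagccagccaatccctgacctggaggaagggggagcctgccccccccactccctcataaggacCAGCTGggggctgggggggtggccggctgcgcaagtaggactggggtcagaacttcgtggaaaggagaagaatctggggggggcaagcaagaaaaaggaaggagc
Tnnc1: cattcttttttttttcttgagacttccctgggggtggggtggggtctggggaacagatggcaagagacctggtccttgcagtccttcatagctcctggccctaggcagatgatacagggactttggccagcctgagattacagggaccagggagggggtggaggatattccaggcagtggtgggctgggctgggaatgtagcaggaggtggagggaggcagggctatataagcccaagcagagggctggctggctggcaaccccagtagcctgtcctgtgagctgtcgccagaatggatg
The first base of the CAGCTG lies 67 bases before the start in Myh4, 55 before it in Atp2a1 and 249 before it in Ckm, and the Tnnc1 window holds none.

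The question behind the comparison of tissues was how much muscle RNA each kind of fat carried. Skeletal muscle genes were low in WT WAT and high in BAT of both genotypes, and the fast fibre genes had the largest differences of the 3 fibre classes. The summed intensity of the 39 genes was 1483, 1646 and 1613 in WT WAT and 2102, 3702 and 2880.4 in KO WAT. In BAT the sum was 15052, 26534 and 61541 in WT and 9007, 28129.7 and 11935 in KO. Every BAT array was above every WAT array, and the BAT arrays of WT spanned a 4.09-fold range.

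**Figure D1:**
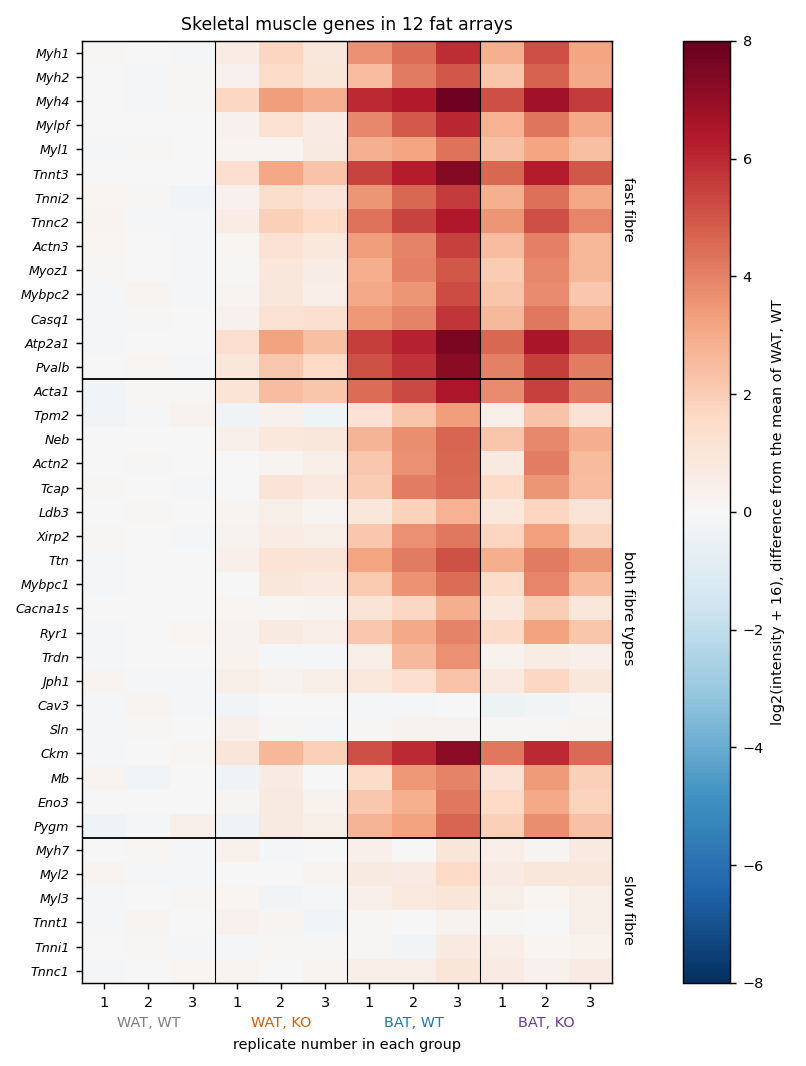
Each row is 1 of the 39 muscle genes and each column 1 of the 12 arrays, grouped by tissue and genotype. Colour is the difference of log2(intensity + 16) from the gene's mean over the 3 WAT arrays of WT, from blue (lower) to red (higher). By class median the fast fibre genes at the top are the darkest in BAT, while Acta1 and Ckm of both fibre types are darker than some of them. The 6 slow fibre genes at the bottom are pale on all arrays, and WT BAT replicate 3 is the darkest column.

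Between BAT and WAT in WT, 34 of the 39 genes rose in BAT by limma (adjusted p under 0.05), against 20.3% of all genes. The median log2 difference was 3.45, against -0.03 for all genes. The arrays of the 2 tissues did not overlap for those 34 genes, against 25.9% of all genes higher in BAT in this way. The 5 genes not called were Myh7, Tnnt1, Tnni1, Cav3 and Sln. In KO, 31 genes rose in BAT, against 20.2% of all genes, with a median log2 difference of 2.17. Ldb3, Trdn and Jph1 joined the genes not called there. The depot comparisons of the genotypes used separate arrays. Between the genotypes, limma called 2.42% of all genes in WAT and 1.72% in BAT, and all KO arrays lay above all WT arrays for 9.88% in WAT.

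Myosin chains form the motor. Myh4, the heavy chain of type IIb fibres (the fastest in mouse), was at 2.39, 1.73 and 4.17 in WT WAT and 43.5, 172 and 126 in KO WAT. In BAT it was at 1145, 1479 and 4164 in WT and 643, 1978 and 892 in KO. All 3 WAT arrays of KO lay above all 3 of WT, all BAT arrays lay above all WAT arrays, and the BAT genotypes overlapped. Myh4 rose in KO WAT (log2 difference 2.64, SE 0.53, adjusted p = 0.0223) and in BAT over WAT in WT (log2 difference 6.69, SE 0.53, adjusted p = 1.13e-06). Its WT WAT values lay below the 25th percentile of all genes on those arrays, 26.3 to 27.2. The size of its change in WAT depended on the constant of 16 added before the logarithm, and was log2 4.77 with a constant of 1 and 1.34 with 64. In BAT the genotype difference of Myh4 was -0.87 (SE 0.53, adjusted p = 0.567) on the log2 scale and was not called.

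Myh1, the heavy chain of type IIx fibres, was at 10.1, 9.18 and 6.68 in WT WAT and 21.4, 65.9 and 30.0 in KO WAT. In BAT Myh1 was at 299, 539 and 1482 in WT and 159, 844 and 203 in KO. The WAT genotypes did not overlap and the BAT genotypes did, and neither difference was called (log2 1.08, SE 0.61, adjusted p = 0.482 in WAT and -0.996, SE 0.61, adjusted p = 0.57 in BAT). Mylpf, the fast regulatory light chain, was at 10.6, 11.0 and 10.7 in WT WAT and 18.2, 47.0 and 26.4 in KO WAT. Its BAT values were 366, 771 and 1708 in WT and 172, 508 and 198 in KO. Mylpf had the lowest genotype difference among the myosin chains in BAT, -1.54 (SE 0.49, adjusted p = 0.183), and its arrays overlapped there. Myl1, the fast essential light chain, was at 108, 119 and 114 in WT WAT and 133, 138 and 194 in KO WAT, without overlap. Its BAT values were 902, 1136 and 2616 in WT and 638, 1123 and 662 in KO, with overlap, and both genotype differences missed the threshold (log2 difference 0.38, adjusted p = 0.677 in WAT and log2 difference -0.82, adjusted p = 0.325 in BAT).

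Myh2, the heavy chain of type IIa fibres, ranged 5.51 to 8.89 in WT WAT and 13.3 to 47.7 in KO WAT, and 113 to 711 in WT BAT and 91.1 to 605 in KO BAT. The slow chains were Myh7, the slow and ventricular heavy chain, and the slow and ventricular light chains Myl2 and Myl3. These 3 genes ranged 22.8 to 35.3 in WT WAT and 28.4 to 109.5 in WT BAT. Myl2 (log2 difference 0.96, adjusted p = 0.00143) and Myl3 (log2 difference 0.73, adjusted p = 0.00208) rose in BAT over WAT in WT, and Myh7 was not called (log2 difference 0.47, adjusted p = 0.106). Of the 8 myosin chains, 7 rose in BAT over WAT in WT and 7 in KO, against 20.3% and 20.2% of all genes. In KO WAT 1 rose, against 2.42% of all genes called in either direction. In BAT none was called between the genotypes, against 1.72%. Before adjustment 3 of the 8 were under 0.05 in BAT, against 2491 of all 19938 genes.

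Thin filament genes encode actin, tropomyosin, nebulin and the troponins. Acta1, skeletal α-actin, was at 59.4, 79.5 and 78.04 in WT WAT and 169, 463 and 392 in KO WAT. In BAT Acta1 reached 1963, 3333 and 7770.4 in WT and 1196, 3902 and 1555 in KO. The WAT genotypes did not overlap (log2 1.91, SE 0.53, adjusted p = 0.0967, not called) and the BAT genotypes did (-0.93, SE 0.53, adjusted p = 0.529). Tnnt3, fast troponin T, was at 8.24, 7.25 and 8.51 in WT WAT and 44.4, 189 and 102 in KO WAT. Its BAT values were 1003, 1844 and 3943 in WT and 573, 1849 and 749 in KO. Its WAT arrays were separate between genotypes, with a log2 difference of 2.24 (SE 0.54, adjusted p = 0.0565) just above the threshold. Both fast partners of troponin T followed the same order of groups. Tnnc2, fast troponin C, was at 23.9, 15.6 and 17.1 in WT WAT, 35.4, 114 and 87.3 in KO WAT, 700.2, 1433 and 2966 in WT BAT and 387, 1238 and 512 in KO BAT. Tnni2, fast troponin I, was at 23.2, 22.1 and 14.7 in WT WAT, 30.1, 79.2 and 56.2 in KO WAT, 398, 860.2 and 1713 in WT BAT and 239, 748 and 291 in KO BAT. For both genes the WAT genotypes were separate and the BAT genotypes overlapped, and no genotype difference was called (in WAT, 1.35, SE 0.52, adjusted p = 0.263 for Tnnc2 and 0.93, SE 0.50, adjusted p = 0.453 for Tnni2).

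The slow troponins had smaller differences between the tissues than their fast counterparts. Tnnt1, slow troponin T, ranged 273 to 360.1 in WT WAT, 265 to 402 in KO WAT, 295 to 379 in WT BAT and 297 to 433 in KO BAT, with all groups overlapping. Its difference between BAT and WAT in WT was 0.12 (SE 0.18, adjusted p = 0.61) on the log2 scale, against 6.35 (SE 0.54, adjusted p = 1.95e-06) for Tnnt3. Tnni1, slow troponin I, had 0.21 (SE 0.20, adjusted p = 0.422), against 4.58 (SE 0.50, adjusted p = 1.25e-05) for Tnni2. Tnnc1, slow and cardiac troponin C, rose by 0.69 (SE 0.14, adjusted p = 0.00168), against 5.39 (SE 0.52, adjusted p = 5.13e-06) for Tnnc2. Tpm2, β-tropomyosin, and Neb, the giant protein along the thin filament, both rose in BAT over WAT in WT (log2 differences 2.23 and 3.72). Of the 9 thin filament genes, 7 rose in BAT over WAT in each genotype, against 20.3% of all genes in WT and 20.2% in KO. None was called between genotypes, against 2.42% of all genes in WAT and 1.72% in BAT. Before adjustment 3 were under 0.05 in WAT and 2 in BAT, against 2768 and 2491 of all 19938 genes.

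**Figure D2:**
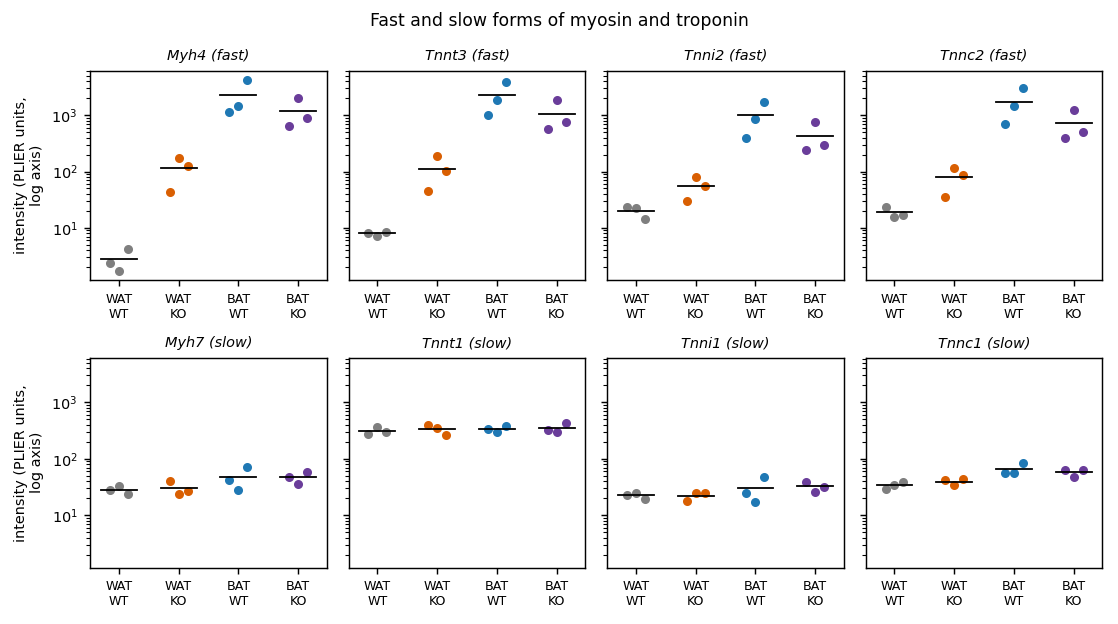
Intensity (PLIER units, log axis) of the fast and slow forms of myosin heavy chain and of troponin T, I and C in the 4 groups; dots are the 3 arrays of a group and the bar is their mean. Myh4, Tnnt3, Tnni2 and Tnnc2 are separate between WT WAT, KO WAT and BAT. Myh7, Tnnt1, Tnni1 and Tnnc1 differ less between the groups, with the WT arrays of Tnnc1 higher in BAT than in WAT.

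Z-disc, titin and myosin-binding genes anchor and space the filaments. Actn3, the α-actinin of fast fibres, was at 45.4, 38.2 and 33.4 in WT WAT and 43.9, 104 and 81.0 in KO WAT. Its BAT values were 535, 823 and 2375 in WT and 288, 878 and 336 in KO. Both genotype pairs overlapped (log2 0.70, SE 0.51, adjusted p = 0.599 in WAT and -1.18, SE 0.51, adjusted p = 0.365 in BAT). Actn2, the α-actinin of all fibres, was at 31.4, 37.0 and 32.1 in WT WAT, 34.3, 41.1 and 51.7 in KO WAT, 204, 595 and 1159 in WT BAT and 65.5, 834 and 266 in KO BAT. Within KO BAT it spanned a 12.7-fold range, the widest of the members there, with replicate 2 at the top, and neither of its genotype differences was called (log2 difference 0.23, adjusted p = 0.937 in WAT and log2 difference -1.01, adjusted p = 0.633 in BAT). Ttn, titin, the molecular spring from Z-disc to M-line, was at 5.85, 7.37 and 7.73 in WT WAT, 14.2, 32.0 and 31.2 in KO WAT, 186, 397 and 785 in WT BAT and 159.5, 402 and 255 in KO BAT. Its WAT genotypes were separate without being called (log2 difference 0.83, adjusted p = 0.428). Mybpc2, fast myosin-binding protein C, was at 6.02, 12.2 and 6.98 in WT WAT, 12.4, 29.2 and 19.2 in KO WAT, 179.6, 259.9 and 892 in WT BAT and 96.6, 320.1 and 91.9 in KO BAT. Its genotypes were separate in WAT (log2 difference 0.56, adjusted p = 0.709) and overlapped in BAT (log2 difference -1.19, adjusted p = 0.38).

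Myoz1, a calcineurin-binding Z-disc protein of fast fibres, Tcap (telethonin), Ldb3, Xirp2 and Mybpc1, another myosin-binding protein C, complete the group. They ranged 3.25 to 26.1 in WT WAT and 59.7 to 833 in WT BAT. All 9 genes of the group rose in BAT over WAT in WT, by log2 1.86 to 4.24, against 20.3% of all genes. In KO 8 of 9 rose, against 20.2%. Between genotypes none was called in either tissue, against 2.42% of all genes in WAT and 1.72% in BAT. In WAT 4 of 9 had separate arrays, higher in KO, against 9.88% of all genes. In BAT 4 of 9 were under 0.05 before adjustment, against 2491 of all 19938 genes, with no separate arrays.

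Calcium genes open and refill the store that triggers contraction. Atp2a1, the calcium pump SERCA1 of fast fibres, was at 8.01, 11.2 and 11.2 in WT WAT and 50.8, 228 and 122 in KO WAT. Its BAT values were 1207, 1831 and 4912 in WT and 625, 2372 and 917 in KO. The WAT genotypes were separate, with a log2 difference of 2.33 (SE 0.58, adjusted p = 0.0649), and the BAT genotypes overlapped (-0.99, SE 0.58, adjusted p = 0.552). Pvalb, parvalbumin, a calcium buffer of fast fibres, was at 13.9, 17.2 and 10.7 in WT WAT and 39.9, 119.8 and 74.4 in KO WAT. In BAT Pvalb was at 1009.9, 1659 and 4396 in WT and 482, 1346 and 524 in KO. It was separate between genotypes in WAT (log2 difference 1.56, adjusted p = 0.173) and overlapped in BAT (log2 difference -1.46, adjusted p = 0.243). Casq1, the calcium-storing calsequestrin of skeletal muscle, was at 17.1, 21.5 and 20.6 in WT WAT, 29.9, 67.1 and 71.4 in KO WAT, 372, 537 and 1860.3 in WT BAT and 195, 635 and 243 in KO BAT. Its genotypes were separate in WAT (log2 difference 0.96, adjusted p = 0.474) and overlapped in BAT (log2 difference -1.17, adjusted p = 0.404).

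Trdn, triadin, which ties calsequestrin to the release channel, was at 74.9, 83.3 and 84.4 in WT WAT and 99.9, 74.2 and 69.4 in KO WAT. In BAT Trdn was at 116, 573 and 1219 in WT and 104, 132 and 114 in KO, with WT replicate 1 inside the KO range. Its genotype difference in BAT, -1.79 (SE 0.57, adjusted p = 0.185), was the lowest of the 39 and was not called. Trdn is named by 19 rows, and the row with the next highest mean was at 152, 399.7 and 704 in WT BAT and 81.2, 293 and 127 in KO BAT. Replicate 2 was the highest KO array of BAT on both rows, and the rows differed in size: on the chosen row it was 1.27-fold over replicate 1. With the mean over all its rows the difference was -1.003 (adjusted p = 0.367), and without WT BAT replicate 1 the chosen row was called (-2.69, adjusted p = 0.000723).

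Cacna1s, the voltage sensor of the T-tubule, Ryr1, the release channel, and Jph1, junctophilin, rose in BAT over WAT in WT by log2 1.86, 3.04 and 1.499. Cav3, muscle caveolin, ranged 55.2 to 75.1 in WT WAT and 53.7 to 60.8 in WT BAT. Sln, sarcolipin, an inhibitor of the calcium pump, ranged 24.2 to 30.8 and 29.7 to 37.1. Neither Cav3 nor Sln was called in any of the 5 comparisons. Of the 9 calcium genes, 7 rose in BAT over WAT in WT and 5 in KO, against 20.3% and 20.2% of all genes.

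Energy supply genes regenerate ATP in the fibre. Ckm, muscle creatine kinase, was at 12.2, 14.8 and 17.6 in WT WAT and 44.3, 181 and 99.8 in KO WAT. In BAT Ckm was at 1103, 1956 and 4427 in WT and 563, 1883 and 694 in KO. The WAT genotypes were separate (log2 1.85, SE 0.55, adjusted p = 0.126) and the BAT genotypes overlapped (-1.22, SE 0.55, adjusted p = 0.395). Pygm, the muscle phosphorylase that breaks down glycogen, was at 65.2, 78.2 and 119 in WT WAT, 67.6, 154 and 125 in KO WAT, 643, 920.3 and 2569.9 in WT BAT and 356, 1288 and 494 in KO BAT, overlapping between genotypes in both tissues. Eno3, the muscle enolase of glycolysis, was at 98.98, 100.3 and 101 in WT WAT, 120.1, 179 and 127 in KO WAT, 493, 805 and 2107 in WT BAT and 327, 948 and 375 in KO BAT, and its WAT genotypes were separate. Mb, myoglobin, the oxygen store of oxidative fibres, ranged 33.7 to 51.9 in WT WAT and 31.5 to 74.4 in KO WAT, with overlap. All 4 rose in BAT over WAT in both genotypes, against 20.3% of all genes in WT and 20.2% in KO. None was called between genotypes, against 2.42% of all genes in WAT and 1.72% in BAT.

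Set by fibre class, fast genes differed most between the tissues. The median log2 difference of BAT over WAT in WT was 4.64 for the 14 fast genes, 3.05 for the 19 genes of both types and 0.58 for the 6 slow genes. All 14 fast genes rose, 17 of the 19 shared genes and 3 of the 6 slow genes, against 20.3% of all genes. In KO the medians were 2.57, 1.83 and 0.43, with 14, 14 and 3 genes called higher, against 20.2% of all genes. Differences of single genes between arrays were compared here, since the probes of different genes have no common scale. Median centring of the arrays moved the median of all genes in BAT over WAT in WT from -0.03 to 0.28. It put 38 of the 39 genes past the threshold in place of 34. Of all genes, 66.6% were called in place of 50.6%, counting both directions.

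**Figure D3:**
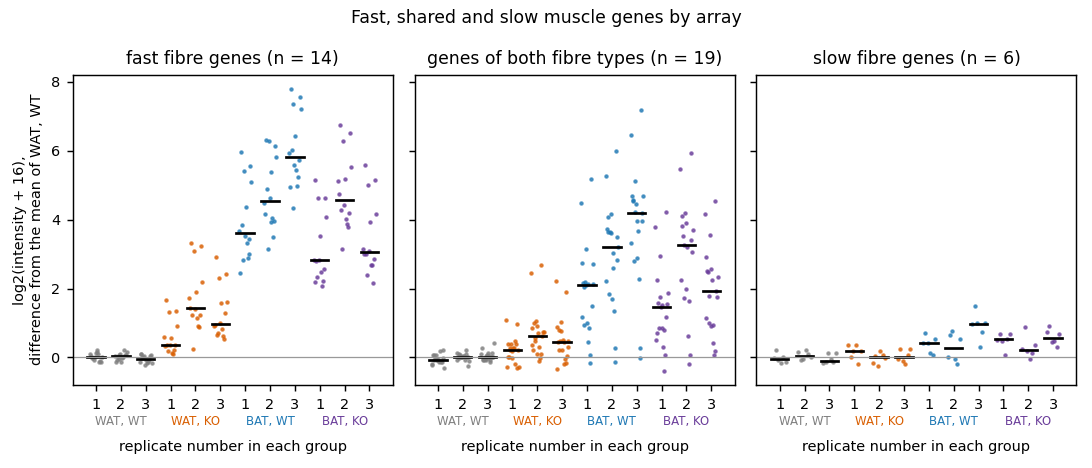
Each dot is 1 muscle gene on 1 array, as the difference of log2(intensity + 16) from the gene's mean over the WAT arrays of WT, and the bar is the median of the class. The medians of the fast genes are 0.36, 1.43 and 0.98 on the WAT arrays of KO and 3.605, 4.55 and 5.82 on the BAT arrays of WT; those of the slow genes reach at most 0.98.

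Whether muscle RNA in white fat differed with Per2 was the question of the next comparison. Values of the muscle genes were higher in KO WAT, by a median log2 difference of 0.50 against -0.005 for all genes, and 34 of 39 differences were positive. Limma called 1 of the 39, Myh4, against 2.42% of all genes. Before adjustment 7 of the 39 were under 0.05, against 2768 of all 19938 genes. For 22 genes all KO arrays lay above all WT arrays, against 9.88% of all genes, and 22 genes met this without KO WAT replicate 3, where the share of all genes was 19.0%. The 22 comprise 12 of the 14 fast genes, 10 of the 19 shared genes and none of the 6 slow genes. Median differences were 0.94, 0.41 and 0.08 in these classes. The call of Myh4 was lost with a constant of 64 (adjusted p = 0.225), with the 6 WAT arrays alone (0.0524), without any 1 of the WT arrays (0.0815, 0.0897 and 0.0844) and without KO replicate 2 (0.0704). Without KO WAT replicate 3, the array that stood apart, Myh4 was called (adjusted p = 0.0326) and the median difference of the 39 was 0.49.

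P-values in the authors' deposited table, adjusted over the same genes, put 16 of the 39 genes past the threshold on log values and 15 on linear values, all higher in KO, against 1.31% and 0.838% of all genes. The limma fit estimated 1 spread for each gene over all 4 groups, and the groups differed in spread. Within groups, the median SD of the log2 values of the 39 genes was 0.11 in WT WAT, 0.374 in KO WAT, 1.02 in WT BAT and 0.844 in KO BAT, against 0.102, 0.163, 0.14 and 0.103 for all genes. With the 6 WAT arrays alone, limma called 0 of the 39, against 0.637% of all genes. The cause of the gap between the limma count and those from the authors' p-values was not tested.

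**Figure D4:**
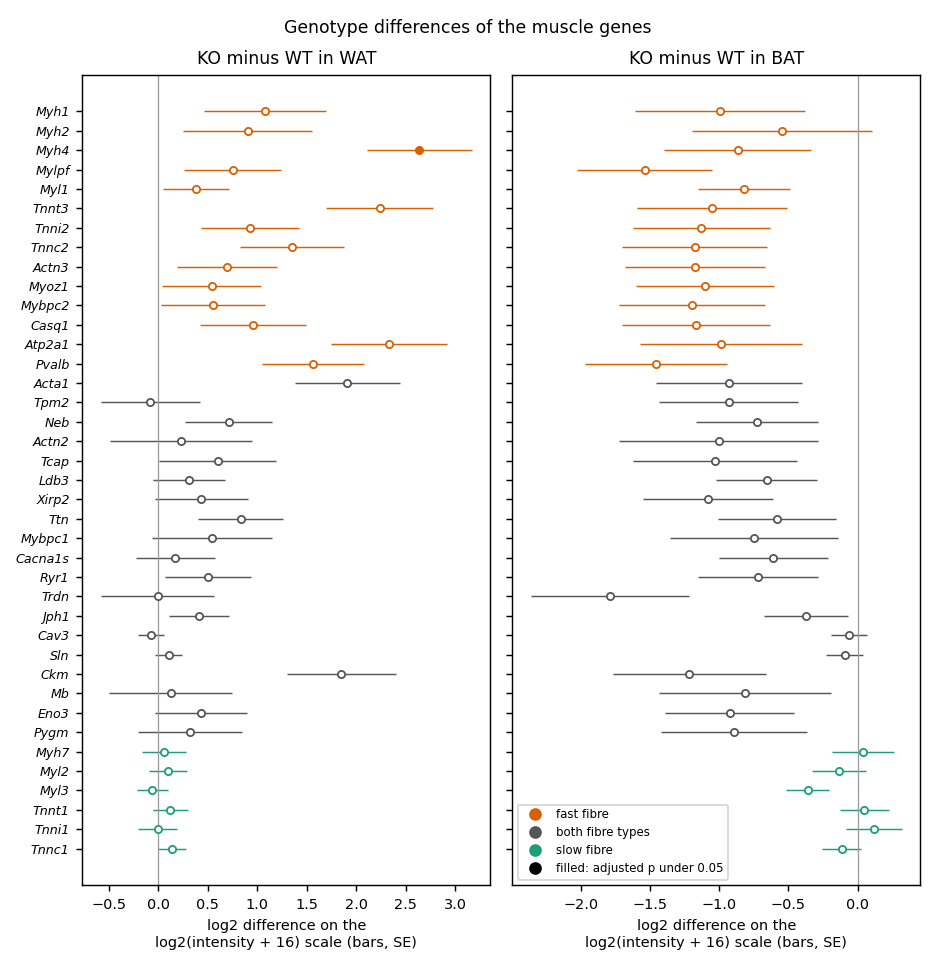
Log2 difference of KO minus WT on the log2(intensity + 16) scale in WAT (left) and BAT (right) for each of the 39 muscle genes, with SE bars; colours give the fibre class and filled points an adjusted p under 0.05. In WAT 34 of 39 points are above 0 and Myh4 alone is filled; in BAT 36 of 39 are below 0 and none is filled.

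In BAT the same comparison gave lower values in KO. The median log2 difference was -0.90, against 0.03 for all genes, and 36 of 39 differences were negative. Limma called none of the 39, against 1.72% of all genes. Before adjustment 12 of the 39 were under 0.05, against 2491 of all 19938 genes. The arrays of the genotypes overlapped for all 39, against 8.24% of all genes lower in KO without overlap and 14.2% higher. Without WT BAT replicate 1, 14 of the 39 lay below all WT arrays left, and without KO BAT replicate 2, 21 did, against 12.4% of all genes in each case. Those arrays were the lowest of WT for 35 genes and the highest of KO for 31. Without WT replicate 2 or 3, 0 lay below, against 13.2% of all genes each time. Without KO replicate 1 or 3, 0 and 1 did, against 11.4% and 11.3%. Without WT replicate 3, 1 lay above, against 21.4%. The p-values of the authors' deposited table, adjusted in the same way, put 6 genes past the threshold on log values, Ckm, Pvalb, Tnnc2, Actn3, Mylpf and Trdn, and 2 on linear values, Mylpf and Trdn, all lower in KO, against 2.39% and 2.08% of all genes. Fast genes had a median of -1.12, shared genes -0.82 and slow genes -0.04. The median of the 39 was -0.35 without WT BAT replicate 3, -0.52 without KO replicate 1, -1.41 without KO replicate 2 and -1.39 without WT replicate 1.

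The difference between the genotype differences of BAT and WAT was tested directly. No muscle gene was called, against 0.592% of all genes. Before adjustment 19 of the 39 were under 0.05, against 1885 of all 19938 genes. The median over the 39 was -1.41. The largest in size was that of Myh4, -3.51 (SE 0.75, adjusted p = 0.0785), followed by Atp2a1 (-3.32, SE 0.83, adjusted p = 0.143) and Tnnt3 (-3.29, SE 0.77, adjusted p = 0.115).

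Arrays of 1 group differed from each other in a shared way. WT BAT replicate 3 was the highest of its group for 38 of 39 genes and replicate 1 the lowest for 35. In KO BAT, replicate 2 was the highest for 31 genes and replicate 1 the lowest for 33. In KO WAT, replicate 2 was the highest for 25 and replicate 1 the lowest for 30. In WT WAT the 3 arrays were highest for 11, 15 and 13 genes and lowest for 21, 5 and 13. The median fold of WT BAT replicate 3 over replicate 1 was 4.39 for fast genes and 1.68 for slow genes, and that of KO BAT replicate 2 over replicate 1 was 3.21 and 0.76.

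Heavy chains of different fast fibres spread over the BAT arrays by different factors, a comparison chosen after their values were seen. In WT, replicate 2 over replicate 1 gave a fold of 1.29 for Myh4 (type IIb), 1.80 for Myh1 (IIx) and 3.59 for Myh2 (IIa), and replicate 3 over replicate 2 gave 2.82, 2.75 and 1.76. In KO, replicate 2 over replicate 1 gave 3.08, 5.31 and 6.65, and replicate 3 over replicate 1 gave 1.39, 1.28 and 1.90. The order of the 3 chains was not the same in all pairs of arrays: Myh4 had the smallest fold in the first pair of each genotype and the largest for WT replicate 3 over 2. Mb, of oxidative fibres, had folds of 4.29, 1.40, 5.29 and 1.78 over the same 4 pairs.

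Genes outside the list were read for other tissues in the samples. Of 49 further measured skeletal muscle genes, 33 rose and 3 fell in BAT over WAT in WT, against 20.3% and 30.3% of all genes. In KO 24 rose and 2 fell, against 20.2% and 26.8%. In WAT none of the 49 was called between genotypes, 29 differences were positive with a median of 0.06, and 7 genes lay above all WT arrays, against 9.88% of all genes. In BAT 46 of the 49 differences were negative, with a median of -0.40. Before adjustment 8 of the 49 were under 0.05 there, against 2491 of all 19938 genes. Limma called 1 of the 49 in BAT, against 1.72% of all genes: Chrnd, a subunit of the muscle acetylcholine receptor. Chrnd rose in KO (log2 difference 0.65, adjusted p = 0.00895). It was at 7.70, 7.38 and 5.31 in WT and 19.6, 15.4 and 24.6 in KO. Its WT values lay below the constant added before the logarithm. They also lay below the 25th percentile of all genes on those arrays, 22.3 to 25.2. Of 11 measured myogenic regulators and satellite cell genes, none was called between genotypes. In BAT over WAT 6 rose and 1 fell in WT, against 20.3% and 30.3% of all genes. In KO 4 rose, against 20.2%. The gene that fell was Chrdl2 (log2 difference -0.60, adjusted p = 0.00365). Myod1 rose in WT (log2 difference 0.58, adjusted p = 0.00714), and so did Myog (log2 difference 0.55, adjusted p = 0.0302). Pax7, the satellite cell factor, was called in KO (log2 difference 0.39, adjusted p = 0.00531) and not in WT (log2 difference 0.20, adjusted p = 0.0946).

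Smooth muscle genes went the other way: 8 of 12 fell in BAT over WAT in WT, against 30.3% of all genes, and 8 fell in KO, against 26.8%. Among them in WT were Acta2 (log2 difference -2.37, adjusted p = 4.33e-05) and Myh11 (log2 difference -2.24, adjusted p = 3.13e-05). Des, the desmin that striated muscle also carries, rose. The cardiac heavy chain Myh6 ranged 8.16 to 18.3 on all 12 arrays. Of 10 heart genes, 5 rose and 1 fell in BAT over WAT in WT, against 20.3% and 30.3% of all genes. In KO 7 of the 10 rose, against 20.2%. Between genotypes 1 of the 10 was called in each tissue, against 2.42% of all genes in WAT and 1.72% in BAT. Tnnt2, cardiac troponin T, fell in KO WAT (log2 difference -2.16, adjusted p = 3.53e-05) and Ryr2 rose in KO BAT (log2 difference 0.48, adjusted p = 0.0376). None of 5 measured nerve and Schwann cell genes was called between genotypes in either tissue. Epididymal genes were high on the WAT arrays, with a median intensity of 8102, 8430.1 and 7874 in WT, 8970.5, 9429 and 2796 in KO and 7.64, 26.5 and 3.37 in WT BAT.

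Brown adipocyte genes were also higher in KO WAT. There 7 of 8 measured brown adipocyte genes rose, against 2.42% of all genes called in either direction, and Prdm16 was not called. The summed intensity of the 8 genes was 236, 298 and 296 in WT WAT and 4572, 4617 and 7692 in KO WAT. In BAT the sum was 22532, 23342 and 21803 in WT and 25323, 25293 and 26846 in KO. Ucp1 was at 2554, 2665 and 4449 and Cidea at 1114, 1051 and 1822 in KO WAT, both highest in replicate 3, while 25 of the 39 muscle genes were highest in replicate 2. Cox7a1, Cox8b and Fabp3, mitochondrial and fatty acid genes that muscle shares with brown fat, also rose there (log2 difference 3.54, adjusted p = 4.03e-07 for Cox7a1). Ckmt2 and Cox6a2, the other shared genes measured, were not called in KO WAT.

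As a level scale, the excess of each WAT array of KO over the WAT mean of WT was divided by the excess of the BAT mean of KO. For the 26 muscle genes more than 4-fold higher in KO BAT than in WT WAT, the median was 2.72%, 13.8% and 8.91% in replicates 1, 2 and 3. The same ratio was 23.5, 24.5 and 40.9% for Ucp1, 16.9, 15.97 and 27.8% for Cidea, 11.2, 12.3 and 20.4% for Cox7a1 and 11.67, 12.3 and 22.6% for Cox8b. It was 8.501, 10.5 and 17.6% for Fabp3, 8.15, 6.66 and 18.3% for Elovl3, 7.53, 9.42 and 14.6% for Otop1 and 6.52, 5.28 and 17.8% for Dio2. In replicate 2 the median muscle ratio was below those of Ucp1 and Cidea and above those of the other 6 genes, and in replicates 1 and 3 it was below those of all 8. The muscle ratio was highest in replicate 2 and those of all 8 other genes in replicate 3. The peak in KO WAT replicate 3 was not particular to brown-fat genes. Summed intensity in KO WAT was 29667, 29984 and 52486 for 8 adipocyte genes of both depots. It was 8391, 8446 and 17747 for 8 white adipocyte genes, and 53227, 55220 and 17199 for 8 epididymal genes. The ratios of the 26 single genes ran up to 18.2% in replicate 2. All ratios were computed with KO BAT as the scale, and the ranking is given for that scale alone. The 26 genes were chosen by their level in the same KO BAT arrays. Summed intensity of the 39 muscle genes was 9007, 28129.7 and 11935 in KO BAT, against 15052, 26534 and 61541 in WT BAT. Ratios to WT BAT were not computed. BAT itself varied 3.12-fold in summed muscle intensity within KO, and the part of brown fat in the muscle values of WAT was not tested.

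**Figure D5:**
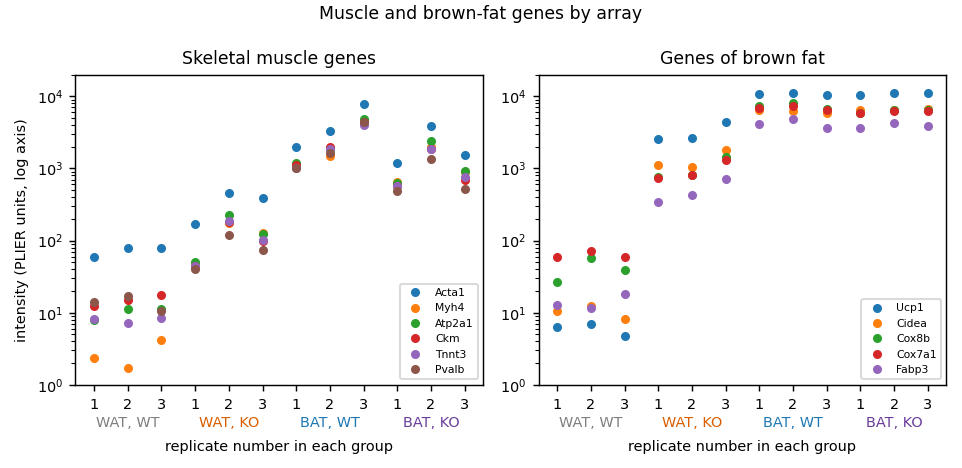
Intensity (PLIER units, log axis) on each of the 12 arrays for 6 muscle genes (left) and 5 genes of brown fat (right); each dot is 1 gene on 1 array. Muscle genes differ between arrays of BAT, with WT BAT replicate 3 at the top, while the genes of brown fat stay level within BAT; in KO WAT the muscle genes peak in replicate 2 and the brown-fat genes in replicate 3.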

How the data were processed

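Per the labels' processing notes, PLIER made the deposited values, which hold 1 linear intensity per transcript row and array. The sources used here give no PLIER version, no scaling between arrays and no genome build of the array design. The authors' own tables also hold, per the file headers, p-values of the regularized t test of Cyber-T 8.01 (hdarray 3.71, R 2.2.1), unadjusted, on natural log and on linear values, and a signed fold of the group means that is a score here. Of 35557 rows, 21789 name 1 gene, 1621 several and 12147 none, from a platform annotation table; for each gene the row with the highest mean was kept, which gave 19938 genes. All 39 members matched a RefSeq gene identifier with the same symbol. Values were fitted as log2(intensity + 16) with limma 3.58.1 in R 4.3.3, 4 group means over 12 arrays, 8 residual and 3.51 prior degrees of freedom. P-values were adjusted by Benjamini-Hochberg over all genes, with 0.05 as the threshold of a call. The procedure was tested on simulated data.

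The members and lists were chosen with earlier results of these data known. All 39 members are named; array values are given for members called between genotypes and, in each role group, for the 3 brightest and the 2 with the largest genotype difference in each tissue. Outside the list, called members of other lists (at most 4 a list) and defining markers are named. No array was the same as another, and none carries a batch label. Deviations of arrays with the same replicate number correlated between -0.119 and 0.0919 over the pairs of groups. Those of unlike numbers ranged as widely, from -0.126 to 0.172, so the correlations cannot show whether arrays share an animal. The numbers were not treated as pairs. The labels call the arrays biological replicates without naming animals, and p-values measure the spread between these arrays. Alternatives were other constants, normalizations, fits and rows, the authors' p-values, a replicate block and leaving out each array.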

Additional observations from a re-analysis of the deposited data

How the results depend on the processing

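Between BAT and WAT, 34 of 39 genes were called in WT and 34 or 35 without any 1 array; in KO 31 were called and 25 to 29 without any 1 array. The median difference of BAT over WAT in WT was 4.38 with a constant of 1 and 2.49 with 64 in place of 3.45, and fast minus slow was 4.91 and 3.11 in place of 4.06. In WAT, the 1 gene called between genotypes became 3 with a constant of 1, 0 with 64 and 2 with median centring. The count was 0 with the 6 arrays compared, 6 with array weights and 4 with the replicate number as a block. It was 16 and 15 by the deposited p-values (log scale, then linear), and 0 to 3 without any 1 array. The 22 genes with separate arrays became 22 to 28 without any 1 array, a count made after seeing the data. The share of all genes higher in this way went from 9.88% to between 13.2% and 19.0%. Without KO WAT replicate 1, where 28 lay above, 2 lay below, against 13.9% and 16.8% of all genes. All genes called in WAT went from 482 to 127 with 6 arrays and 1631 with array weights, and in BAT from 343 to 712 with array weights. In BAT, the authors' p-values called 6 and 2 genes and leaving out 1 array 0 to 1. For the difference of differences, 0 became 1 with a constant of 1, 4 with array weights and 0 to 1 without 1 array, and all genes called went from 118 to 439 with array weights and 76 with the block. The leave-one-out medians were 0.39 to 0.61 in WAT, -1.41 to -0.35 in BAT, 2.96 to 4.03 and 1.47 to 2.54 between tissues in WT and KO, and fast minus slow 0.62 to 1.20 in WAT and 3.70 to 4.53 between tissues. Without 1 array, all genes called numbered 226 to 876 in WAT (the highest without KO WAT replicate 3), 165 to 237 in BAT and 59 to 372 for the difference of differences. No called value reversed its sign. The cause of these shifts was not tested. Arrays of the same number share only that number, so the 4 genes called with the replicate block are no paired result. Signal limits the dim genes: WT WAT intensities of many members lie near the added constant.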
